A study of Mus musculus with 31 samples.

Results

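The 9 bromodomain genes Brd2, Brd3, Brd7, Brd8, Brd9, Baz1a, Baz1b, Baz2a and Baz2b were followed through RNA-seq of the mouse caudate putamen (CPu), the dorsal part of the striatum. They were chosen by name, with earlier results of these data known, from the relatives of the targeted gene Brd1 that also carry a bromodomain. Each of the 9 was found among the 52636 gene identifiers of the expression table. The study examined mice, labelled as female, that lack 1 working copy of Brd1 and asked how their brain gene expression differed from that of wild-type (WT) littermates, with and without the tricyclic antidepressant imipramine (IMN). The 31 mice belonged to the strain labelled C57BL/6NTac-Brd1, in full C57BL/6NTac-Brd1tm1.2Arte/AborgMmucd, were labelled female and were 8 to 11 weeks old. Each mouse gave 1 library, made from a punch of the right CPu.

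There were 8 WT vehicle mice, 7 Brd1+/- vehicle mice, 8 WT IMN mice and 8 Brd1+/- IMN mice. Brd1+/- mice carried 1 copy of Brd1 with a targeted deletion, in every cell of the body and throughout development. Vehicle was saline, and IMN was given subcutaneously at 10 mg/kg. Every mouse, vehicle mice included, was injected on each day of a behavioral series (tail suspension, open field and forced swim) that ended shortly before the brain was taken, so no group was untouched. Brd1 itself bore out the labels. In vehicle mice Brd1 ran from 11.1 to 16 TPM in Brd1+/- mice and from 18.3 to 26.9 TPM in WT mice. In IMN mice it ran from 11.3 to 13.8 TPM in Brd1+/- and from 14.6 to 22.5 TPM in WT. The genotypes did not overlap under either treatment (two-sided exact permutation test, p = 0.0001554 for each, the smallest value that these group sizes allow). The unit, TPM, is scaled to gene length and to the total of each library, so levels can be compared between genes.

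A bromodomain is a small protein fold that holds acetylated lysine, most often on histone tails, and so lets a protein find active chromatin. BET proteins such as Brd2 and Brd3 use it to bring elongation factors to acetylated genes. Brd7 and Brd9 sit in different forms of the SWI/SNF chromatin remodeler, Brd8 in the NuA4/TIP60 acetyltransferase complex, and the Baz proteins act as large partners of the ISWI remodelers that slide nucleosomes. Brd1 is itself a scaffold of an acetyltransferase complex, which is why its relatives are of interest when it is reduced.

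Upstream sequences are shown for 3 members: Brd9, which had the lowest log2 difference in the vehicle comparison, Baz1b, as an example of a window rich in CpG, and Baz2b, whose window was the poorest in CpG. RefSeq (GRCm38.p6) held upstream windows for 7 of the 9 members, with 3 for Brd2, 2 for Brd9 and 1 for each of the rest, and none for Brd8 and Baz1a. For Brd9 the first window is described. The 250 bases before each start were searched on both strands for short motifs. These were CCAAT, the letters TATAAA, the E-box spelled CACGTG, the cyclic AMP response element with the letters TGACGTCA, the GC box spelled GGGCGG, and the ETS site with the letters CCGGAAG. Capitals below mark whole matches on either strand. Sequences run 5′ to 3′ on the gene's own strand and stop where an annotated exon begins.
Brd9, chr13:73937785-73937810, plus strand: gccccaccctgacCCGGAAGcacttg
Baz1b, chr5:135187073-135187263, plus strand: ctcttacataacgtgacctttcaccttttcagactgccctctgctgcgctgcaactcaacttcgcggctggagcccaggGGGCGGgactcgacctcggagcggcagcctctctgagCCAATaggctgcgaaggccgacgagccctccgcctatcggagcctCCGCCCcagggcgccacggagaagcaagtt
Baz2b, chr2:60125820-60125990, minus strand: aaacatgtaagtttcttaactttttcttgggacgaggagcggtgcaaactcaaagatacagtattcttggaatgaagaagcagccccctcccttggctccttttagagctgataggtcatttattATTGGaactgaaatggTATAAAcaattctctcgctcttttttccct

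The Brd9 stretch is short because 224 of its 250 upstream bases lie in annotated exons of the neighbouring gene Trip13. Its whole window was 72.4% G or C with 33 CpG dinucleotides, and held 4 GC boxes beside the ETS site, which starts 13 bases before the start. The Baz1b window was 63.6% G or C with 20 CpG, and held 2 GC boxes and a CCAAT box. The Baz2b window lies inside the annotated gene span, before an internal start, as do those of Brd3 and Baz2a, while those of Brd9 and Baz1b lie at the gene edge. It stood apart from the other members, at 41.2% G or C with 4 CpG. Among the windows of the 7 members it alone held the TATAAA letters. It also held TGACGTCA 24 bases before the start, in a part that is annotated as exon. Over the 32851 upstream windows of all mouse genes, the medians were 52.4% and 6 CpG. GGGCGG was found in 32.7% of those windows, CCAAT in 33.8%, TATAAA in 12.4%, CCGGAAG in 6.91% and TGACGTCA in 1.55%. A match of letters describes the sequence and is no evidence of binding.

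The genes lie on 8 chromosomes. In GRCm38, Brd2 (ENSMUSG00000024335) lies at chr17:34112023-34122634 and Brd3 (ENSMUSG00000026918) at chr2:27445579-27507662, both on the minus strand. Brd7 (ENSMUSG00000031660) lies at chr8:88331039-88362194 on the minus strand and Brd9 (ENSMUSG00000057649) at chr13:73937811-73960895 on the plus strand. Brd8 (ENSMUSG00000003778) lies on chromosome 18. Baz1a (ENSMUSG00000035021) lies at chr12:54892989-55014348 on the minus strand and Baz1b (ENSMUSG00000002748) at chr5:135187264-135246129 on the plus strand. Baz2a (ENSMUSG00000040054) lies at chr10:128091577-128129303 on the plus strand, and Baz2b (ENSMUSG00000026987), the longest at 310477 bases, at chr2:59899363-60209839 on the minus strand. Whether the counting used strand is not given in the sources used here, and an exon of Brd2 is overlapped on the opposite strand by H2-DMa (mean 25.4 TPM). An exon of Baz1a is overlapped on its own strand by Gm20403 (mean 1.05 TPM), so reads of these pairs may have been split between them.

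All 9 genes were expressed in the CPu punches, at widely different levels. Some of these punches, most of them from WT vehicle mice, had high cortical marker scores, as given below. Brd2, the BET protein, was the highest at 78.4 TPM on average over the 31 mice, above 93.9% of the 25394 genes tested. Baz1b, the Williams syndrome transcription factor, followed at 45.8 TPM. Brd2 exceeded Baz1b in 31 of 31 mice, so this step in the order is clear. Brd9 averaged 32.2 TPM (46.0 in WT vehicle mice and 25.6 to 29.5 in the other groups), Brd7 29.1 TPM and Brd8 26.1 TPM. Brd9 exceeded Brd7 in only 14 of 31 mice, so these neighbours were not separated, whereas Baz1b exceeded Brd9 in 29 of 31. Baz2b (20.3 TPM), Baz2a (20.0 TPM) and Brd3 (20.0 TPM) formed a level group. Baz2b exceeded Baz2a in 17 of 31 mice, and Baz2a exceeded Brd3 in 14. Baz1a, a subunit of the ACF and CHRAC remodelers, was by far the lowest at 3.56 TPM, above 47.5% of genes and below Brd3 in 31 of 31 mice. By group mean, Brd9 ranked 3 in WT vehicle and WT IMN mice, 4 in Brd1+/- IMN mice and 5 in Brd1+/- vehicle mice. Baz2a, Baz2b and Brd3 also changed places among ranks 6 to 8, while Brd2, Baz1b and Baz1a held ranks 1, 2 and 9 in all 4 groups.

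**Figure D1:**
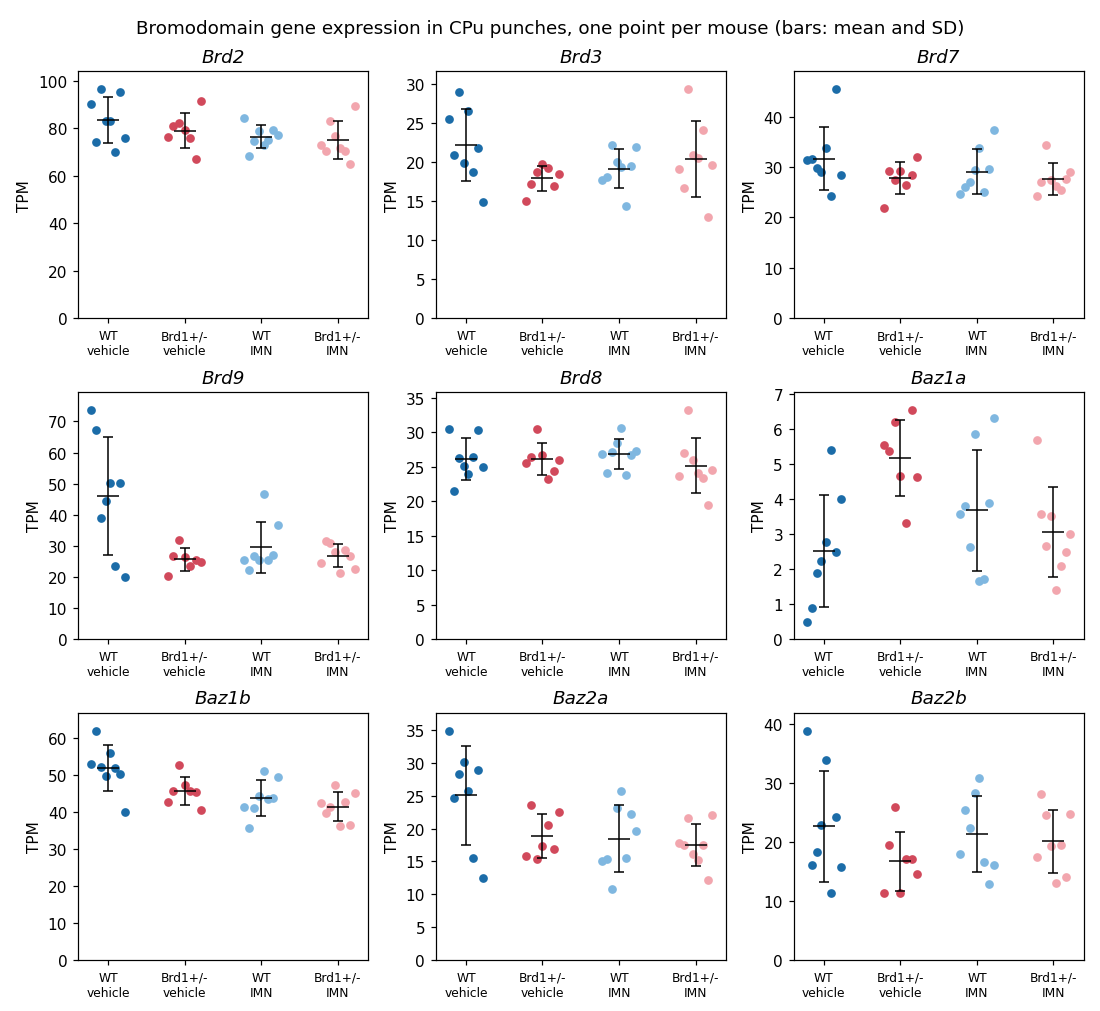
Expression of the 9 genes in TPM (vertical axes, starting at 0) in each of the 31 mice, by group, with the mean and SD of the group as bars. Brd9 spreads from 20.1 to 73.7 TPM among WT vehicle mice, and Baz1a is lowest in the same group, while Brd2 and Brd8 keep to a narrow range.

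The cortical and striatal marker scores of the libraries varied most among WT vehicle mice, which enter 3 of the 5 comparisons. A cortical score (the mean log2(TPM + 1) of 10 marker genes of cortical excitatory neurons) was above 5 in 6 of 8 WT vehicle mice and in none of the Brd1+/- vehicle mice, where it ran from 1.84 to 3.95. WT vehicle mice 6 and 8 had the scores 1.43 and 1.6. Slc17a7, the vesicular glutamate transporter of cortical neurons, had a median of 932 TPM in WT vehicle mice and 95.8 TPM in Brd1+/- vehicle mice. The striatal score, from 10 markers of medium spiny neurons, ran the other way. It averaged 7.33 in WT vehicle and 9.0 in Brd1+/- vehicle mice, 8.81 in WT IMN and 8.82 in Brd1+/- IMN mice. Ppp1r1b, which encodes DARPP-32, a defining protein of medium spiny neurons, ranged from 73.8 to 4023 TPM in WT vehicle mice and from 2878 to 3778 TPM in Brd1+/- vehicle mice, and no marker of either list was at 0 throughout a group. By two-sided exact permutation tests the vehicle genotypes differed in the striatal score with p = 0.0169 and in the cortical score with p = 0.0550, or 0.187 and 0.293 after Benjamini-Hochberg adjustment over 32 tests. The other 6 marker lists (astrocyte, oligodendrocyte, microglia, endothelium, choroid plexus with ependyma, and erythrocyte) had adjusted p of 0.187 or more in the same tests, lowest for the erythrocyte genes, whose score averaged 4.72 in WT IMN mice, 5.23 in WT vehicle and 5.24 in Brd1+/- IMN mice. In bulk tissue, fewer cells of a type and less RNA per cell cannot be told apart. WT vehicle mouse 7 carried 26.8 TPM of 4 Y-linked genes, against at most 0.188 TPM in any other mouse, so the main results that use it are also given without it.

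The first comparison asked how the 9 genes differed between the genotypes in vehicle-treated mice. Of the 8 WT mice, 6 had cortical scores above every Brd1+/- mouse, and 6 had striatal scores below every Brd1+/- mouse. Genotype and the content of the punch therefore cannot be told apart in this comparison. Of the 9 genes, 2 passed p under 0.01, the level used here for nominal calls: Brd9 was lower and Baz1a was higher in Brd1+/- mice. Over all 23200 genes tested, 13.6% passed in either direction, 12.1% as lower and 1.47% as higher. None of the 23200 genes passed a false discovery rate (FDR) of 5% in limma, although 7168 had p under 0.05. That 0 was not stable. Without WT vehicle mouse 8, 5482 genes passed the FDR, without WT vehicle mouse 6, 4563, and in every other fit that left out 1 mouse at most 1. It was 4963 with all 4 groups in one fit, 3583 with the replicate block, which also drops mouse 8, and 1833 among genes with a mean of at least 1 TPM. Brd9 and Baz1a were both among the genes that passed the FDR without mouse 8, without mouse 6, with all 4 groups and with the block, and Baz1a among those with a mean of at least 1 TPM. The whole distribution was shifted, with a median log2 difference of -0.13, and 6 of the 9 members lay below that median. The median of the 9 was -0.18. Median-of-ratios scaling, which brings the median of all genes near 0, turned the split of calls from 2811 lower and 342 higher genes to 1240 lower and 894 higher.

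Brd9 is the bromodomain subunit of the non-canonical BAF complex, a form of SWI/SNF. Its TPM in WT vehicle mice was 73.7, 67.3, 38.9, 44.6, 50.2, 23.4, 50.2 and 20.1 in mice 1 to 8. In Brd1+/- vehicle mice the lowest value was 20.2, the median 25.5 and the highest 32.0 TPM. So 6 of 8 WT mice exceeded every Brd1+/- mouse, while WT mice 6 and 8, the ones with low cortical scores, fell among or below them. The means were 46.0 ± 18.9 (SD, n = 8) and 25.6 ± 3.59 TPM (SD, n = 7). The log2 difference was -0.71 (SE 0.24), or -0.59 relative to the median of all genes, which passed p under 0.01 with adjusted p = 0.0681 (limma, Benjamini-Hochberg). The adjusted p ranged from 0.0145 to 0.602 over the alternatives of scaling, filter, pseudocount, block, joint fit and marker scores, and from 0.00966 to 0.128 over the fits that left out 1 mouse. The call at p under 0.01 was lost with median-of-ratios scaling (-0.53, adjusted p = 0.117), with quantile normalization (-0.52, adjusted p = 0.115) and with the cortical (-0.22, adjusted p = 0.560) or striatal score (-0.28, adjusted p = 0.602) as covariate. It was also lost without WT vehicle mouse 1 (-0.60), 2 (-0.62), 3 (-0.73), 4 (-0.70), 5 (-0.68) or 7 (-0.68), and without Brd1+/- vehicle mouse 1 (-0.66), 2 (-0.73), 4 (-0.72), 5 (-0.70), 6 (-0.71) or 7 (-0.71), each of which left a p between 0.0106 and 0.0182.

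Baz1a moved the other way. Its protein pairs with the ISWI motor Smarca5 to space nucleosomes. In WT vehicle mice 1 to 8 it stood at 0.478, 0.889, 1.90, 2.22, 2.79, 5.41, 2.49 and 4.01 TPM. In Brd1+/- vehicle mice it stood at 5.54, 5.39, 6.21, 4.66, 3.32, 6.55 and 4.65 TPM. The groups overlapped only through WT mice 6 and 8, and 6 of 8 WT mice lay below every Brd1+/- mouse. The means were 2.52 ± 1.6 (SD, n = 8) and 5.19 ± 1.09 TPM (SD, n = 7), 2.06 times as high in Brd1+/- mice. The log2 difference on the log2(TPM + 1) scale was 0.93 (SE 0.26), which passed p under 0.01 with adjusted p = 0.0556 in limma, and the adjusted p ranged from 0.0148 to 0.535 over the same alternatives and from 0.0112 to 0.108 over the fits that left out 1 mouse. The p stayed under 0.01 in each of the 15 fits that left out 1 mouse, the one without WT vehicle mouse 7 included (0.95). With a marker score as covariate it did not, and the difference was 0.52 (cortical, adjusted p = 0.466) or 0.48 (striatal, adjusted p = 0.535).

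Of the other members, Brd3 came nearest. This BET protein binds acetylated chromatin and, in blood cells, the factor GATA1. It ranged from 14.9 to 28.9 TPM in WT vehicle mice (median 21.4) and from 15 to 19.8 TPM in Brd1+/- vehicle mice (median 18.5). The log2 difference was -0.27 (SE 0.12, adjusted p = 0.139). Of the 8 WT mice, 6 lay above every Brd1+/- mouse, but WT mouse 8 lay below all of them.

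Baz1b ranged from 40.1 to 62.0 TPM in WT vehicle mice and from 40.5 to 52.7 TPM in Brd1+/- vehicle mice (log2 difference -0.18, adjusted p = 0.164). Baz2a, the subunit of the nucleolar complex NoRC that silences ribosomal DNA, ranged from 12.5 to 34.9 TPM in WT vehicle mice and from 15.4 to 23.6 TPM in Brd1+/- vehicle mice (log2 difference -0.35, adjusted p = 0.223). Baz2b, its close relative, ranged from 11.4 to 38.8 TPM and from 11.3 to 25.9 TPM (log2 difference -0.37, adjusted p = 0.297). Above every Brd1+/- mouse lay 6 of the 8 WT mice for Baz2a, 3 for Baz1b and 2 for Baz2b, and in each of these 3 genes the groups overlapped. Without WT vehicle mouse 8, 5 of the 9 genes passed p under 0.01, since Brd3 (-0.34), Baz1b (-0.23) and Baz2a (-0.47) joined Brd9 and Baz1a. In that fit 22.4% of all genes passed, against 13.6% with the mouse included, so the count rose over all genes and not only in the members.

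Brd2, Brd7 and Brd8 gave the smallest differences. Brd2 averaged 83.5 ± 9.76 TPM in WT vehicle and 79.0 ± 7.33 TPM in Brd1+/- vehicle mice (log2 difference -0.08, 95% interval -0.25 to 0.10). Brd7, the subunit of the PBAF form of SWI/SNF, averaged 31.7 ± 6.20 and 27.8 ± 3.14 TPM (log2 difference -0.17, interval -0.41 to 0.07, and -0.10 without WT vehicle mouse 7). Brd8 averaged 26.1 ± 3.07 and 26.1 ± 2.29 TPM, with an interval of -0.17 to 0.18. The signs of Brd2, Brd7 and Baz1b were not fixed: under median-of-ratios scaling and quantile normalization all 3 turned positive, while Brd9, Brd3, Baz2a and Baz2b remained negative and Baz1a positive. Brd8, at 0.00 in TPM as deposited, was at 0.18 and 0.20 under these scalings.

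**Figure D2:**
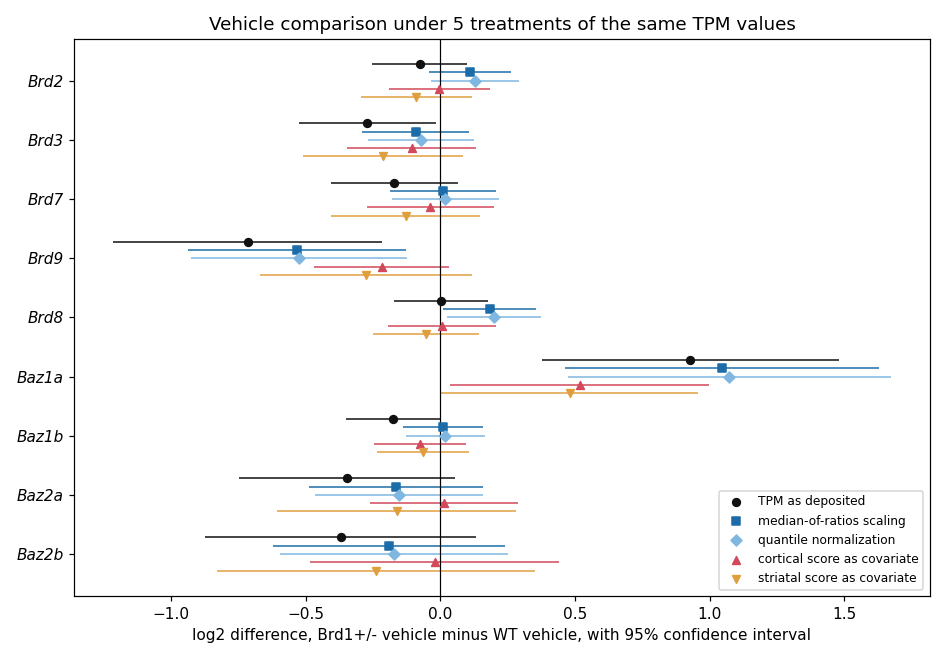
Log2 difference between Brd1+/- and WT vehicle mice for each gene (horizontal axis, with 95% confidence intervals) for TPM as deposited, with rescaling by median of ratios or quantiles, and with a cortical or striatal marker score as covariate. Brd9 (from -0.71) and Baz1a (from 0.93) both move toward 0 with either score and keep their sign in all 5. Brd2, Brd7 and Baz1b change sign on rescaling.

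The spread between mice was itself uneven. On the log2(TPM + 1) scale the SD of Brd9 was 3.35 times as large in WT vehicle as in Brd1+/- vehicle mice. The ratio was 2.55 for Baz1a, 2.29 for Brd3 and 2.05 for Baz2a. For the median gene it was 1.45, and Brd2 (1.26), Brd8 (1.37) and Baz2b (1.41) lay below that.

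The second comparison asked the same of IMN-treated mice, and here each of the 9 genes differed by less than its spread allows to be called. None passed p under 0.01 or 0.05 in limma, against 0.703% of 23339 genes at p under 0.01, 0.514% as lower and 0.189% as higher. The log2 differences ran from -0.18 (Baz1a) to 0.06 (Brd3), with adjusted p = 0.998 for each. Brd9 had a minimum of 22.3, a median of 26.1 and a maximum of 46.7 TPM in WT IMN mice, and 21.4, 27.5 and 31.6 TPM in Brd1+/- IMN mice. The groups overlapped, apart from WT IMN mice 5 and 8, which lay above every Brd1+/- mouse and whose cortical scores were 5.56 and 5.18. The interval of the Brd9 difference was -0.38 to 0.17. Baz1a had a minimum of 1.65, a median of 3.70 and a maximum of 6.31 TPM in WT IMN mice, and 1.40, 2.84 and 5.69 TPM in Brd1+/- IMN mice. Its interval was wide, from -0.66 to 0.31, so a difference of moderate size in either direction was not detectable with these mice. The tightest interval belonged to Brd2, from -0.17 to 0.10. In this pair of groups the cortical scores averaged 3.13 and 2.98. The erythrocyte score averaged 4.72 in WT IMN and 5.24 in Brd1+/- IMN mice (two-sided exact permutation test, p = 0.0171, adjusted 0.187).

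The third comparison set WT IMN against WT vehicle mice, which are the same WT vehicle mice as in the first comparison. None of the 9 genes passed p under 0.01, and 2 had p under 0.05 in limma. Over the 23579 genes tested, 6.95% passed p under 0.01, 5.6% as lower and 1.35% as higher, and 1 passed the FDR. Without WT vehicle mouse 8 the 1639 genes at p under 0.01 became 3576 with 2459 past the FDR, and without WT vehicle mouse 6, 3178 with 1176. With all 4 groups in one fit they were 3424 and 2291. Most of the other fits that left out 1 mouse gave fewer genes at p under 0.01, down to 905 without WT vehicle mouse 5. The split of 1321 lower and 318 higher genes became 747 and 670 under median-of-ratios scaling. Baz1b had a median of 52.2 TPM in WT vehicle mice and 43.7 TPM in WT IMN mice, with 5 of 8 vehicle mice above every IMN mouse. The log2 difference was -0.24 (SE 0.09, adjusted p = 0.149). Brd9 had a median of 47.4 TPM in WT vehicle and 26.1 TPM in WT IMN mice, with 4 of 8 vehicle mice above every IMN mouse. Its log2 difference was -0.55 (SE 0.24, adjusted p = 0.189).

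Both genes crossed the level when 1 library was dropped. Without WT vehicle mouse 8, Brd9 (-0.69) and Baz1b (-0.29) both passed p under 0.01 and the FDR (adjusted p = 0.0480 and 0.0410 in limma), in a fit where 15.3% of all genes passed p under 0.01, against 6.95% with the mouse included. Baz1b also passed p under 0.01, but not the FDR, without WT IMN mouse 5 (-0.27) or WT IMN mouse 8 (-0.26). When all 4 groups were fitted together both genes passed p under 0.01 and Baz1b alone passed the FDR (adjusted p = 0.0649 for Brd9 and 0.0460 for Baz1b). Without WT vehicle mouse 7, the one with Y-linked reads, Brd9 was at -0.51 (adjusted p = 0.270) and Baz1b at -0.24 (adjusted p = 0.209), and 1067 genes in all passed p under 0.01. Baz1a stood at 0.46 (interval -0.15 to 1.07) and Baz2a at -0.40 (interval -0.84 to 0.03). The cortical score averaged 4.98 in WT vehicle and 3.13 in WT IMN mice, and with it as covariate Brd9 was at -0.09 (adjusted p = 0.907).

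The fourth comparison set Brd1+/- IMN against Brd1+/- vehicle mice, in which every striatal score lay between 8.57 and 9.10. Baz1a was the 1 gene of the 9 that passed p under 0.01, against 1.83% of 23020 genes in either direction, 0.964% as lower and 0.869% as higher. It was lower after IMN. In Brd1+/- IMN mice 1 to 8 it stood at 5.69, 3.58, 2.68, 3.53, 1.40, 2.1, 2.49 and 3.01 TPM, to be read against the 7 vehicle values given above. Of the 8 IMN mice, 5 lay below every vehicle mouse, and IMN mice 1, 2 and 4 lay among the vehicle mice. The means were 3.06 ± 1.28 (SD, n = 8) and 5.19 ± 1.09 TPM (SD, n = 7). The log2 difference was -0.65 (SE 0.18), which passed p under 0.01 with adjusted p = 0.408 in limma (0.333 to 0.902 over the same kinds of alternatives and 0.207 to 0.588 over the fits that left out 1 mouse), and no gene passed the FDR, although 1633 had p under 0.05. All 15 fits without 1 mouse kept p under 0.01, with log2 differences from -0.76 to -0.55. The call was lost with the striatal score as covariate (-0.61, adjusted p = 0.693) and in the fit of all 4 groups (adjusted p = 0.902). The striatal score averaged 9.0 in the vehicle and 8.82 in the IMN mice (two-sided exact permutation test, p = 0.0438, adjusted 0.280).

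The other 8 genes did not pass between Brd1+/- IMN and Brd1+/- vehicle mice. Baz2b was at 0.26 (interval -0.13 to 0.65), Brd3 at 0.15 (interval -0.12 to 0.42) and Baz1b at -0.14 (interval -0.28 to 0.01). Baz1b ranged from 36.4 to 47.4 TPM after IMN and from 40.5 to 52.7 TPM after vehicle. Brd9 was at 0.06 with an interval of -0.15 to 0.27, and its values in the vehicle and IMN groups covered nearly one range (20.2 to 32.0 and 21.4 to 31.6 TPM). Brd7, at -0.01, and Brd8, at -0.06, were level within their spread.

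**Figure D3:**
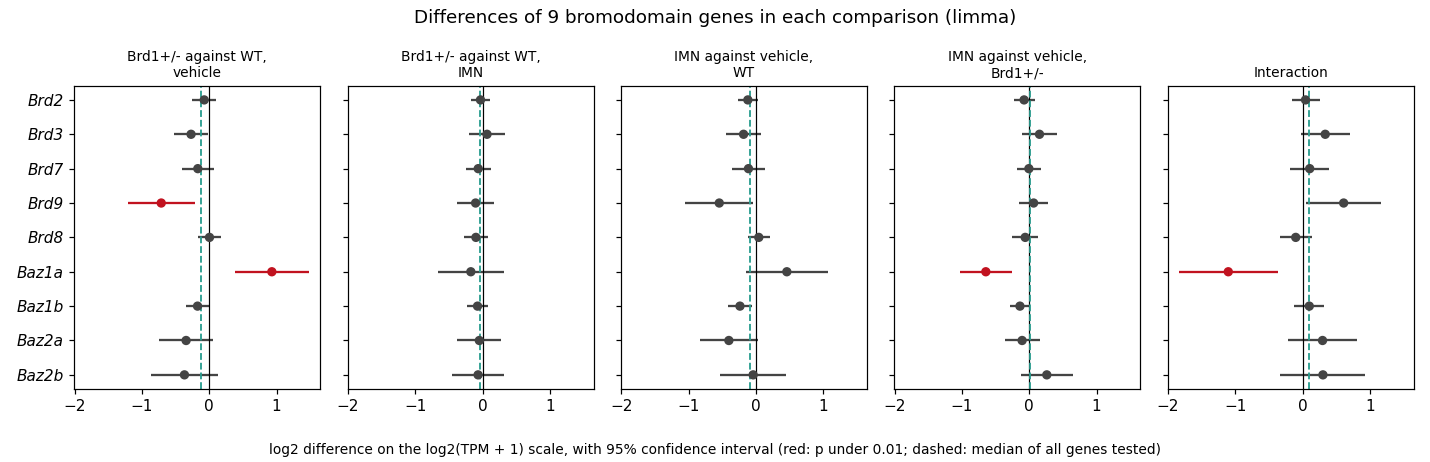
Log2 difference of each gene on the log2(TPM + 1) scale with its 95% confidence interval in the 5 comparisons, with p under 0.01 in red and the median of all genes tested as a dashed line. Baz1a is marked in 3 panels and Brd9 in 1; in the vehicle panel the signs of Brd2, Brd7 and Baz1b turn on rescaling.

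The last comparison tested whether IMN acted differently in the 2 genotypes (the interaction of genotype and treatment, fitted over all 31 mice). Baz1a was the 1 member with p under 0.01, with a log2 difference of differences of -1.10 (SE 0.36, adjusted p = 0.261). Of 25394 genes, 3.74% passed, 0.78% with a negative and 2.97% with a positive sign, and none passed the FDR, with 4119 at p under 0.05. The 951 genes at p under 0.01 became 2349 without WT vehicle mouse 6, 2571 without WT vehicle mouse 8 and 1674 without WT IMN mouse 5. Left out 1 at a time, WT vehicle mice 1, 2 and 5 and Brd1+/- vehicle mouse 1 gave 546, 605, 590 and 633. Under median-of-ratios scaling the split of 198 negative and 753 positive genes became 394 and 412. The Baz1a means show its shape: 2.52 and 3.68 TPM in WT mice under vehicle and IMN, and 5.19 and 3.06 TPM in Brd1+/- mice. Its p stayed under 0.01 in all 31 fits that left out 1 mouse (-1.25 to -0.95), with -1.12 (adjusted p = 0.314) without WT vehicle mouse 7. The call was lost with the cortical (-0.84, adjusted p = 0.687) or the striatal score (-0.65, adjusted p = 0.998) as covariate. Brd9 had the opposite sign, at 0.61 (SE 0.27, adjusted p = 0.282), and passed p under 0.01 without WT vehicle mouse 6 (0.73) or 8 (0.76). Brd3 followed at 0.34 (adjusted p = 0.343), and the remaining 6 genes lay between -0.10 and 0.30. All 4 group means enter this test, so it shares its mice with each comparison above.

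Brd9 levels and the marker scores varied together across mice. In WT vehicle mice its 6 values from 38.9 TPM upward were those of the mice with cortical scores above 5. Outside the WT vehicle group, WT IMN mice 5 and 8, the only others with cortical scores above 5, had 46.7 and 36.8 TPM, the highest Brd9 values of the remaining 23 mice. Over those 23 mice, Brd9 and the striatal score had Pearson r = -0.845 (permutation p = 2e-05, adjusted 0.00036 over 18 relations) and Spearman rho = -0.718 (permutation p = 0.00022, adjusted 0.00396). Without the 2 mice farthest from the median score, r was -0.693. With the cortical score r was 0.637 (permutation p = 0.00078, adjusted 0.00702) and rho 0.518 (permutation p = 0.0122, adjusted 0.11), but r fell to 0.311 without the 2 farthest mice, so that relation rests on them. Over all 31 mice, WT vehicle mice included, other members varied with the scores too. Pearson r with the cortical score was 0.861 for Brd9, 0.614 for Baz1b, 0.588 for Baz2a, 0.546 for Brd7 and -0.524 for Baz1a. With the striatal score it was -0.824 for Brd9, -0.645 for Baz1b, 0.625 for Baz1a and -0.506 for Baz2a. These had adjusted permutation p of 0.0046 or less over 18 relations, and the other Pearson relations 0.0653 or more.

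The striatal score spanned 3.20 to 9.16 in WT vehicle mice and 8.16 to 9.10 in the others. For Baz1a the relations are given in these 2 sets of mice, and no test compared the sets. Over the 23 mice outside the WT vehicle group its r was 0.370 with the striatal score (permutation p = 0.0798, adjusted 0.238; rho 0.291, permutation p = 0.178, adjusted 0.534) and 0.118 without the 2 farthest mice. With the cortical score r was -0.102 (permutation p = 0.643, adjusted 0.764; rho -0.080, permutation p = 0.718, adjusted 0.789). WT IMN mice 5 and 8, alike in cortical score, had 1.65 and 6.31 TPM of Baz1a. Among the 8 WT vehicle mice the cortical score formed 2 clusters, so no relation with it is given there. The striatal score did not, and with it Baz1a had r = 0.776 (exact permutation p = 0.0202, adjusted 0.112 over 18 relations) and rho = 0.738 (exact permutation p = 0.0458, adjusted 0.165), and r was 0.602 without the 2 mice farthest from the median. Brd9 had r = -0.794 in the same 8 mice (exact permutation p = 0.0146, adjusted 0.112; rho -0.905, exact permutation p = 0.00456, adjusted 0.0821), and -0.887 without the 2 farthest. The lowest Baz1a values, 0.478 and 0.889 TPM, belonged to mice 1 and 2, whose striatal scores of 6.02 and 3.20 were the lowest of all 31, and the highest, 5.41 and 4.01 TPM, to mice 6 and 8, with 9.09 and 9.16.

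**Figure D4:**
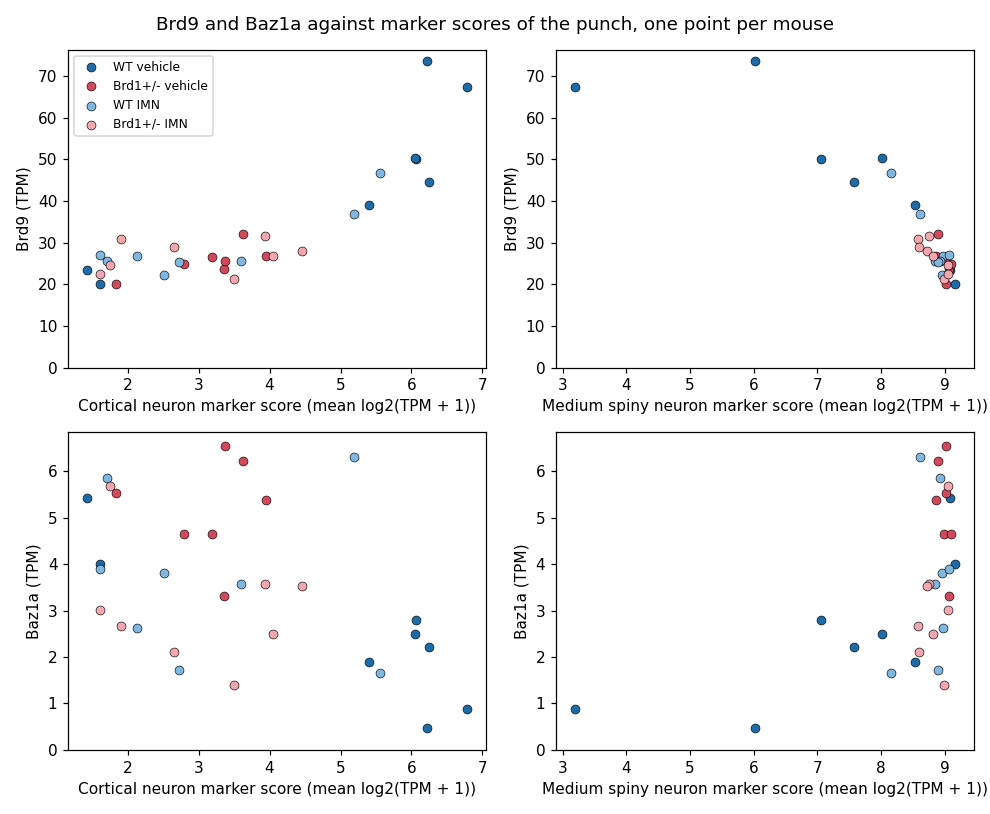
Brd9 (top) and Baz1a (bottom) in TPM against the cortical marker score (left) and the striatal marker score (right), each a mean log2(TPM + 1), with 1 point per mouse and color by group. Mice with cortical scores above 5 hold the highest Brd9 values, 36.8 to 73.7 TPM, and Baz1a scatters widely at striatal scores near 9.

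The genes most like each member were sought by the Pearson r of log2(TPM + 1), with each gene centred on its group mean, over 31 mice and 17390 genes. The closest was to Brd9, with Lrrc55 at r = 0.946 (rho 0.866) and Borcs7 at r = 0.943 (rho 0.937). For Brd2 they were Heatr5b (r = 0.836) and Hectd4 (r = 0.835), and for Baz2a Sptan1 (r = 0.859) and Ddx56 (r = 0.816). For Brd3 they were Phf2 (r = 0.802) and Zc3h7b (r = 0.801), and for Brd8 Tead1 (r = 0.802). Brd7 had Gm42372 (r = 0.847) and Gm9575 (r = 0.781), Baz1b had Dmxl2 (r = 0.790) and Gm16485 (r = 0.788), and Baz2b had Gm15801 (r = 0.822) and Gm8783 (r = 0.809). Baz1a had the weakest likeness, with Mir7056 at r = 0.699 (rho 0.419) and Xrcc4 at r = 0.698 (rho 0.492). These were picked as the highest of many, so they carry no test.

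The complexes in which these proteins work were read through 5 lists of partner genes, each with all its genes tested. In the vehicle comparison, 3 of 21 SWI/SNF subunits passed p under 0.01, all lower in Brd1+/- mice. Since 12.1% of all genes passed as lower, this count and those that follow are near the background and are no result about the complexes. Bcl7c fell by 0.78 on the log2 scale (9.98 ± 3.47 TPM in WT and 5.10 ± 0.68 TPM in Brd1+/- mice), Ss18l1, the neuronal nBAF subunit CREST, by 0.47 and the ATPase Smarca2 by 0.45. Of 16 NuA4/TIP60 subunits, 3 passed, also lower: Yeats4 (-0.34), Morf4l2 (-0.44) and Dmap1 (-0.26). The P-TEFb list, the elongation factor that BET proteins work with, had 1 of 7, its inhibitor Hexim1 (-0.28). None of the 4 ISWI and CHRAC genes passed, and of 24 further bromodomain genes only Zmynd8 did (-0.49). The list medians ran from -0.22 (NuA4/TIP60) to -0.10 (further bromodomain genes), around the -0.13 of all genes, and no partner gene was higher at this level in the main fit to TPM as deposited. Under quantile normalization 3 were, Smarcd1 (0.39) and Smarcd3 (0.66) of SWI/SNF and the bromodomain gene Zmynd11 (0.24), and with the striatal score Brwd1 was lower (-0.27); these 4 were named after their values were seen, like Bptf and Atad2 below. These 8 genes had adjusted p from 0.0556 to 0.0681 in limma. All 8 stayed lower under both scalings and with either marker score as covariate, but few kept p under 0.01. With median-of-ratios scaling, quantile normalization or the cortical score this was Bcl7c alone (-0.61, -0.58 and -0.39), and with the striatal score none of the 8. Of the 8, 6 kept it without WT vehicle mouse 7, all but Smarca2 (-0.42) and Ss18l1 (-0.42).

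In IMN mice 1 partner gene passed between genotypes, 1 of the 16 of NuA4/TIP60, the scaffold Epc1, lower in Brd1+/- mice (-0.36), where 0.514% of all genes were lower. Between WT IMN and WT vehicle mice, 4 passed as lower after IMN: Bcl7c (-0.65), Mrgbp (-0.42), Ruvbl2 (-0.24) and Brwd1 (-0.22). These are 1 of 21 SWI/SNF genes, 2 of 16 NuA4/TIP60 genes and 1 of 24 further bromodomain genes, where 5.6% of all genes were lower. In Brd1+/- mice the SWI/SNF subunit Smarcd1 was lower after IMN (-0.23) and the acetyltransferase Kat2b higher (0.39), 1 of 21 and 1 of 24 in their lists, where 0.964% of all genes were lower and 0.869% higher. Bcl7c was the 1 partner gene in the interaction, with the sign opposite to that of Baz1a (0.75), 1 of 21 in its list, where 2.97% of all genes passed with a positive sign. The direction of each of these differences held under both scalings and both scores. In WT mice Bcl7c was the 1 of the 4 that kept p under 0.01 under either scaling, Brwd1 the 1 that kept it with the striatal score, and none did with the cortical score. Bptf joined as higher under quantile normalization (0.24). Bcl7c and Mrgbp kept it without WT vehicle mouse 7, and Ruvbl2 (-0.24) and Brwd1 (-0.20) did not. Between the genotypes under IMN, Atad2 joined as lower with the striatal score (-0.30). Smarcd1 and Kat2b lost it with the striatal score, and the Bcl7c interaction with either score, while Epc1 kept it in all 4 settings. No partner gene passed the FDR in the main fit to TPM as deposited, under either scaling or with either score, but like the members some did in other fits. In the vehicle comparison these were 7 of 71 among genes with a mean of at least 1 TPM, 8 of 72 with the replicate block, 15 with all 4 groups in one fit, 12 without WT vehicle mouse 6 and 20 without WT vehicle mouse 8, in fits where 10.5%, 15.4%, 19.5%, 19.9% and 23.8% of all genes passed. Of these partner genes, 7, 7, 14, 12 and 19 in the same order were lower in Brd1+/- mice, and the rest higher. Between WT IMN and WT vehicle mice the partner genes past the FDR were 4 of 72 with all 4 groups, 1 without WT vehicle mouse 6 and 4 without WT vehicle mouse 8, where 9.02%, 5.03% and 10.5% of all genes passed. All of these were lower after IMN.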

How the data were processed

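The authors punched the CPu, made single-end libraries sequenced on BGISEQ-500, aligned them to GRCm38 with HISAT2 2.1.0 and deposited TPM from StringTie 1.3.4 for 52636 genes in each of 31 mice. TPM sums to between 999787 and 999918 per mouse. The depth of each library is therefore unknown beyond the minimum of clean reads that the paper states, and no counting interval can be given. From these values log2(TPM + 1) was fitted with limma 3.58.1 (R 4.3.3, trended eBayes), using only the mice of each comparison and genes above 0.1 TPM in at least 7 mice. The study tested counts with edgeR, which TPM does not allow. Calls used p under 0.01 or an FDR of 5% over all genes. How well the limma fit recovers changes of known size when spread differs between groups, as with WT vehicle mice, was not tested. Marker scores were compared by exact permutation tests. Mouse numbers did not pair the groups (correlations of same-numbered mice from -0.43 to 0.45), so no pairing was used. Named genes were all members, Brd1, partner genes with p under 0.01 (up to 3 per list), the 2 genes most like each member (1 of them is not reported here), and chosen markers. Marker lists (8) were scored, of cortical, striatal, glial, vascular, ependymal and blood cells. The members and lists were chosen with earlier results of these data known.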

Additional observations from a re-analysis of the deposited data

Results flagged for a closer look

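Brd7 stood at 45.4 TPM in WT vehicle mouse 7, far above the other 7 WT vehicle mice, which ran from 24.3 to 33.7 TPM. This is the mouse whose library also carried Y-linked reads; the part of that library in the value was not tested. In Brd1+/- IMN mice, mouse 3 had the highest Brd7 value at 34.4 TPM, far from the 28.9 TPM of the next. Such gaps were looked for in 36 sets (9 genes in 4 groups) with Dixon's test, which marks about 1 set in 20 by chance, and 2 sets were marked.

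Baz1a was flagged for the interaction of genotype and treatment, with a log2 difference of differences of -1.10 (adjusted p = 0.261 in limma, with p under 0.01). Of all genes, 3.74% passed that level and none passed the FDR. The Baz1a call was lost with the cortical or the striatal score as covariate. Its log2 difference between IMN and vehicle was 0.46 in WT mice (adjusted p = 0.346) and -0.65 in Brd1+/- mice (adjusted p = 0.408), and the groups overlapped in both genotypes.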

How the results depend on the processing

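Pseudocount 0.1, no filter and a mean of at least 1 TPM kept all 45 differences in direction and on their side of the 0.01 level. In the vehicle comparison 2 genes passed, but 1 with median-of-ratios scaling, 1 with quantile normalization, and 0 with the cortical or the striatal score as covariate. WT IMN against WT vehicle gave 2 in place of 0 with all 4 groups in one fit. Brd1+/- IMN against vehicle gave 0 in place of 1 with all 4 groups in one fit or with the striatal score, and the interaction 0 in place of 1 with either score. Leaving out each mouse gave 1 to 5, 0 to 0, 0 to 2, 1 to 1 and 1 to 2 genes in the 5 comparisons in order. With a replicate block the vehicle comparison gave 3 genes (Brd3 joined) and Brd8 was -0.0054; WT vehicle mouse 8 has no partner there and drops out, and mouse numbers were no pairs. Some log2 differences changed sign with median-of-ratios and with quantile scaling, given in that order. In the vehicle comparison these were Brd2 0.11 and 0.13, Brd7 0.011 and 0.020, and Baz1b 0.0094 and 0.020. In IMN mice this was Brd2 0.015 and 0.017. In WT mice these were Brd2 0.0027 and 0.044, Brd7 0.0093 and 0.021, and Baz2b 0.078 and 0.086. In the interaction these were Brd2 -0.095 and -0.11, Brd7 -0.031 and -0.037, and Baz1b -0.039 and -0.050. The cortical score turned Baz2a in the vehicle comparison (0.013), and Brd7 (0.023) and Baz2b (0.20) in WT mice. The striatal score turned Brd8 in the vehicle comparison (-0.052), Baz2b in WT mice (0.086), Brd9 in Brd1+/- mice (-0.11) and Baz1b in the interaction (-0.023). Leaving out 1 mouse turned Brd8 in the vehicle comparison (-0.036 to 0.035), Brd3 (-0.011 to 0.15), Baz2a (-0.15 to 0.023) and Baz2b (-0.16 to 0.013) in IMN mice, Baz2b in WT mice (-0.16 to 0.080) and Brd7 in Brd1+/- mice (-0.061 to 0.028). None of the turned differences had p under 0.05, and the cause was not tested. Over all genes the vehicle count at p under 0.01 was 3153, and 343 (striatal score) to 5005 (all 4 groups in one fit) over the settings. Over the same settings the WT IMN count of 1639 ran from 301 to 3424, the interaction count of 951 from 132 to 1086, the count of 164 between genotypes under IMN from 97 to 230, and the count of 422 in Brd1+/- mice from 296 to 533. Leaving out 1 mouse gave 2036 to 5154, 905 to 3576, 546 to 2571, 127 to 252 and 306 to 498 in that order. TPM holds no read counts, so the counting error of Baz1a, the lowest member, is unknown.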
